A study of Mus musculus with 4 samples.

Results

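RNA-seq of 2 control samples of mouse zygotes, the 1-cell embryos formed at fertilisation, was compared between them. One was the control of an experiment labelled H3.3 MO (MO control) and the other the control of an experiment labelled H3.3 S31A (S31A control). They are 2 of the 4 samples of the series, and the injected sample of each experiment, MO injected and S31A injected, is used only for comparison. H3.3 is the histone H3 variant placed on chromatin outside DNA replication, and S31A names a change of serine to alanine in it, while the labels do not spell out MO. The labels give no strain, age, time after fertilisation or number of embryos for any sample, and do not say whether control zygotes received a mock injection, so experiment, embryo source, collection and library batch cannot be told apart. Each sample had 2 count columns, called libraries 1 and 2, and no source says whether these were separate pools of embryos. With 1 sample per group no test between the controls is possible, and the libraries show only how far columns of 1 sample lie apart.

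The zygote depends on RNA and mitochondria that the oocyte stored. Maternal mRNA is held in a silent, short-tailed form, translated after fertilisation and then destroyed, while the embryo's genome becomes active in a minor wave and later in a major wave. Mitochondria come from the egg, and their small circular genome encodes rRNAs, tRNAs and the core subunits of the respiratory chain.

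The summed totals were 14806944 counts for the MO control (libraries of 9145323 and 5661621) and 21700991 for the S31A control (10436258 and 11264733). Of 55291 features, 8370 reached 10 CPM (counts scaled to the library total) in at least 1 of the summed samples and are called measured. The deeper S31A control libraries detected fewer genes, 11372 and 11768 against 15156 and 14895. Of genes that reached 10 CPM in either library, 706 of 8411 (8.39%) had 0 counts in the other library of the S31A control, against 61 of 8300 (0.73%) in the MO control. Markers of the expected cell were present: all 14 oocyte and zygote markers were measured, with summed levels of 11631 and 13361 CPM in the MO control and 12973 and 12866 CPM in the S31A control. None of the 14 blood and immune, 11 oviduct, stroma and skin, or 11 sperm and testis markers was measured. Of 32 cumulus and granulosa markers, which would show follicle cells carried along with the egg, 6 were measured and 22 had 0 counts in all 4 control libraries. Their summed level was 312 and 408 CPM in the MO control and 395 and 484 CPM in the S31A control, most of it Serpine2, and Star was at 23.5 CPM in S31A control library 1 and 0 in the other 7 libraries. Kitl went the other way, at 10.9 and 22.9 CPM in the MO control and 0.09 and 0 CPM in the S31A control.

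Ratios below are log2 of the CPM in the S31A control over that in the MO control, from summed counts scaled with TMM factors, with a prior count of 2. Of the measured genes, 1054 (12.6%) were 2-fold or more higher in the S31A control and 1452 (17.3%) were 2-fold or more lower. Both S31A control libraries lay beyond both MO control libraries for 755 of these (9.02% of measured genes) on the higher side and 1285 (15.4%) on the lower side. At any size, the libraries did not overlap for 3880 genes (46.4%). The quasi-likelihood test of edgeR, run over the 4 libraries, called no gene (0%) at a Benjamini-Hochberg adjusted p under 0.05, with 826 genes at an unadjusted p under 0.05, while DESeq2 called 90 higher and 280 lower, 370 in all. Those p-values rest on the spread of columns within a sample, which can be technical.

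Mitochondrially encoded mRNAs were higher in the S31A control. At least 2-fold higher were 3 of the 9 measured (33.3%, against 12.6% of all measured genes). All 9 measured of 13 had a ratio above 0, from 0.73 to 1.63 with a median of 0.90, where the median over all measured genes was 0.00. Their summed level was 51579 and 40562 CPM for the MO control and 86825 and 94892 CPM for the S31A control. The whole mitochondrial share of counts, rRNAs and tRNAs included, was 5.55% and 5.23% against 9.65% and 10.36%. CPM are shares of a library, so more mitochondrial RNA per zygote and less of other RNA cannot be told apart.

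mt-Nd2, a subunit of respiratory complex I (mitochondrial genome, bases 3914 to 4951), was at 6156 and 4886 CPM in the MO control and 12622 and 14816 CPM in the S31A control. The libraries did not overlap, and the ratio was 1.29 (95% interval of counting error 1.28 to 1.30). mt-Nd1, another complex I subunit, was at 7914 and 5909 CPM against 12337 and 15853 CPM, a ratio of 1.002. The cytochrome b gene mt-Cytb, the only mitochondrially encoded subunit of complex III, was at 18149 and 11463 CPM against 28849 and 28641 CPM, a ratio of 0.90. mt-Co1, a core subunit of cytochrome c oxidase, was at 8764 and 7689 CPM against 15035 and 14462 CPM, a ratio of 0.83. In each of these genes both S31A control libraries were the higher ones. mt-Nd3 had the largest ratio, 1.63, with 41.5 and 119 CPM against 219 and 225 CPM.

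Of the 22 mitochondrial tRNAs, 4 were measured, and mt-Tn, mt-Tl1 and mt-Tp had ratios of 1.89, 1.61 and 1.33 with libraries that did not overlap. mt-Tn, the asparagine tRNA, was at 14.0 and 18.9 CPM in the MO control and 62.4 and 55.6 CPM in the S31A control. The rRNAs did not follow the mRNAs: mt-Rnr1 was at 659 and 1911 CPM against 1018 and 1009 CPM (ratio -0.18) and mt-Rnr2 at 2868 and 6087 CPM against 6018 and 6444 CPM (ratio 0.60). Both overlapped between the controls, because MO control libraries 1 and 2 lay far apart for them.

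**Figure D1:**
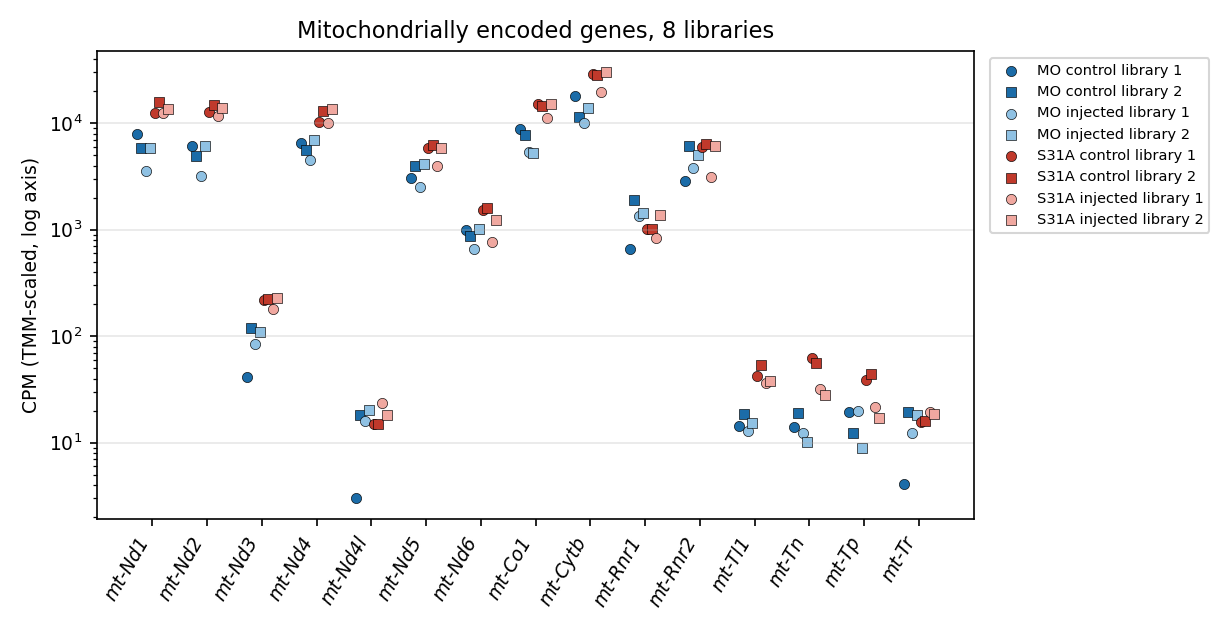
CPM (log axis) of the 15 measured mitochondrially encoded genes in each of the 8 libraries, where blue points are MO and red points S31A, dark for control and light for injected. The dark red points lie above the dark blue ones for mt-Nd1, mt-Nd2, mt-Nd4, mt-Co1 and mt-Cytb, and among them for mt-Rnr1.

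The 4 mitochondrial mRNAs below the filter, mt-Co2, mt-Co3, mt-Atp6 and mt-Atp8, stood at 9.25 CPM or less in every control library. Nearly all 31-base words of 3 of them, 100% for mt-Co2, 99.9% for mt-Co3 and 99.5% for mt-Atp6, also occur in nuclear copies on chromosome 1 (Gm28661, Gm28437 and Gm10925 among them). Those copies held few counts themselves, for example Gm10925 at 3.69 and 4.60 CPM in the MO control and 9.81 and 9.06 CPM in the S31A control. The same holds in part for mt-Nd4l (98.9% of its words), mt-Nd3 (98.1%), mt-Co1 (63.9%) and mt-Nd4 (62.8%), whose levels are therefore uncertain, and for none of the words of mt-Nd1. mt-Nd4l, which had the lowest ratio of the measured mRNAs, 0.73, also overlapped, at 3.04 and 18.2 CPM against 15.1 and 15.03 CPM. How reads with several matches were treated is not given in the sources used here, and its part in these levels was not tested.

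Nuclear genes of the same organelle did not move as 1 group. Of 75 nuclear subunits of oxidative phosphorylation, 21 were measured, with a median ratio of 0.42. At least 2-fold higher were 4 (19.0%, against 12.6% of all measured genes), and 1 was lower (4.76%, against 17.3%). The lower gene was Ndufa10, a complex I accessory subunit, at 84.1 and 122 CPM in the MO control and 7.01 and 19.5 CPM in the S31A control, a ratio of -2.86. Of 23 genes of mitochondrial DNA upkeep and transcription, 13 were measured, 2 higher (15.4%) and 3 lower (23.1%). Tfam, which packs mitochondrial DNA and starts its transcription, was at 18.3 and 26.1 CPM against 11.03 and 2.29 CPM, and Tfb2m, its partner factor, at 58.5 and 25.0 CPM against 5.33 and 16.9 CPM. Both were lower in the S31A control with no overlap of libraries, at ratios of -1.69 and -1.98. Mterf1a, a mitochondrial transcription termination factor, was higher at 21.4 and 11.8 CPM against 3.59 and 4.27 CPM, a ratio of 2.07.

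Among maternal transcripts with many reads, Klf17, a Krüppel-like transcription factor gene, was lower in the S31A control (chr4, bases 117757836 to 117765648, GRCm38). Its level was 2169 and 2097 CPM in the MO control and 601 and 534 CPM in the S31A control, a ratio of -1.91 (interval -1.94 to -1.88). The libraries of each sample lay close together and the samples well apart. In the other direction Rspo2, which encodes an R-spondin, a secreted activator of Wnt signalling, was at 856 and 1068 CPM against 2192 and 2186 CPM, a ratio of 1.23.

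The Tcl1b genes, an oocyte-expressed cluster on chromosome 12 related to Tcl1, an Akt co-activator, were lower together. They were taken as a group after their values were seen. All 5 were at least 2-fold lower with no overlap between libraries, against 15.4% of all measured genes. Their ratios were -1.13 (Tcl1b1), -1.38 (Tcl1b2), -1.53 (Tcl1b3), -2.49 (Tcl1b4) and -1.95 (Tcl1b5). Tcl1b4 was at 590 and 302 CPM in the MO control and 81.2 and 86.7 CPM in the S31A control, and Tcl1b1 at 1924 and 1294 CPM against 708 and 810 CPM. Tcl1 itself, the neighbouring founder of the family, was at 3632 and 2457 CPM against 2023 and 2129 CPM, a ratio of -0.60. In each of these MO control library 1 was the higher one of its sample, and without MO control library 1 the median over the 5 genes was -1.04 in place of -1.53. The genes are alike, with 12.4% (Tcl1b4) to 47.5% (Tcl1b3) of their 31-base words found in another gene, so reads could pass between them. The other 12 measured members of the Nlrp, Oog and Tcl1 families list, the oocyte Nlrp genes and Oog1 to Oog4, ran from -0.79 (Oog3) to 0.91 (Nlrp4b), and none was 2-fold apart.

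Because the Tcl1b genes were lower together, 3 of their promoters are shown, the 250 bases before the gene start in RefSeq (GRCm38.p6, all plus strand), with matches to CAGGTG or its reverse complement CACCTG in capitals. They lie at chr12:105159454-105159703, chr12:105190795-105191044 and chr12:105202145-105202394. By the deposited gene coordinates the windows of Tcl1b4 and Tcl1b2 lie inside the counted genes, which start at bases 105201957 and 105146014. Those windows are therefore upstream only of the RefSeq start.
Tcl1b1: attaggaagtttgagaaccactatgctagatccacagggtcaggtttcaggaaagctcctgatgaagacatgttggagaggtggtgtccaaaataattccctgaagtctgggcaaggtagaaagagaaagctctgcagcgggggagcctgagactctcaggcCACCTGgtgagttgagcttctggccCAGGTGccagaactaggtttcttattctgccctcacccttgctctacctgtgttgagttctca
Tcl1b3: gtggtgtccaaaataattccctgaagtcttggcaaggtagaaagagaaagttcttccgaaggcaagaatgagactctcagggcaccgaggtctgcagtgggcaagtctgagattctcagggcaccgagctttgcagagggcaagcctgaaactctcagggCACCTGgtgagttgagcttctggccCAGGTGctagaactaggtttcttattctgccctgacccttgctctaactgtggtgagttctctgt
Tcl1b4: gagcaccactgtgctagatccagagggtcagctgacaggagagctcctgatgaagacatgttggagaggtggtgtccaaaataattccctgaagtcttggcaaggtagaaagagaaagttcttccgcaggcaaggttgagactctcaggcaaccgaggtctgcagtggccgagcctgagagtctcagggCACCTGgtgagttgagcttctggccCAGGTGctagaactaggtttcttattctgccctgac
All 5 Tcl1b windows held 2 matches, and aligned pairs of them were 72.1% to 99.2% identical, so these are copies and not separate occurrences. Over all 32851 promoter windows 17.2% held a match and 2.06% held 2 or more. Among the windows of genes at least 2-fold apart without overlap, a match was held by 17.0% of those higher and 14.5% of those lower in the S31A control, against 15.9% over measured genes, and neither Klf17 nor Lsm14b held one. A match is a description of letters, not a bound site.

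The Fbxw cluster, oocyte-expressed genes of F-box proteins on chromosome 9, had small ratios, mostly above 0. Of 15 measured members, 13 had a ratio above 0 and the median was 0.44, but only 2 were at least 2-fold higher (13.3%, against 12.6% of all measured genes) and 1 was lower. Fbxw18 was at 98.7 and 114 CPM in the MO control and 256 and 313 CPM in the S31A control, a ratio of 1.46. Fbxw26, the lower one, was at 37.6 and 70.2 CPM against 12.8 and 33.1 CPM, a ratio of -1.10. Obox2, an oocyte homeobox gene with 80.3% of its 31-base words in other genes, was at 2215 and 1106 CPM against 3490 and 3625 CPM, a ratio of 1.02, while Obox5 was at 3111 and 1459 CPM against 1273 and 1368 CPM, a ratio of -0.88.

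Of 6 measured genes of the egg coat and of sperm binding, 3 were at least 2-fold higher in the S31A control, against 12.6% of all measured genes, none was lower, and the median was 1.05. Cd9 (-0.11) and Zp2 (0.21) were close to even. Zp3, a glycoprotein of the zona pellucida, was at 8.80 and 17.1 CPM in the MO control and 46.4 and 32.5 CPM in the S31A control, a ratio of 1.70. Astl, the egg protease that hardens the coat after fertilisation, was at 19.996 and 29.3 CPM against 101 and 30.9 CPM, and Zp1 at 24.6 and 29.6 CPM against 32.05 and 97.1 CPM. Their libraries did not overlap, but in Astl and Zp1 the lower S31A control library was close to the MO control. None of the 8 members of the subcortical maternal complex, which the embryo needs to pass the first divisions, was 2-fold apart. The same held for the 14 measured oocyte growth and transcription factors. Several of these genes had many reads, and at 200 to 500 CPM only 3.95% of genes were higher and 5.99% lower. In the injected pair 2 members of the complex were 2-fold higher and 1 lower, and of the 14 factors 4 were higher and 1 lower. Between the controls Ooep was the member of the complex closest to 2-fold, at 236 and 750 CPM against 230 and 219 CPM, resting on MO control library 2.

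**Figure D2:**
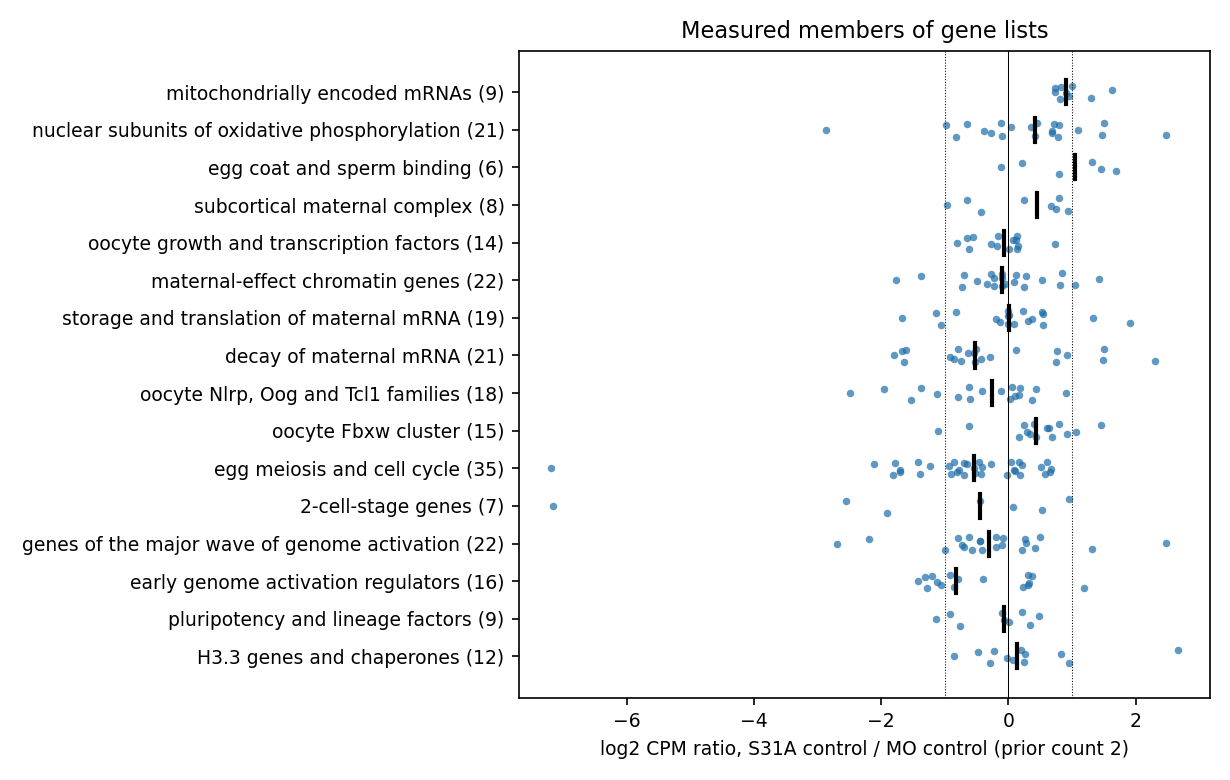
Each point is a measured member of a gene list, placed by its log2 CPM ratio of S31A control over MO control, and the black bar is the list's median, with the number of measured members in brackets and dotted lines at 2-fold. The mitochondrially encoded mRNAs all lie right of 0 around a median of 0.90, and the early genome activation regulators have the lowest median of the 16 lists drawn, -0.82 (the Tcl1b genes are drawn only within their longer list).

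Chromatin genes with a maternal effect were split, with 2 of 22 higher, 2 lower and a median of -0.10. These shares were 9.09% each, against 12.6% higher and 17.3% lower over all measured genes. Zfp57, which protects imprinted methylation, was at 503 and 498 CPM in the MO control and 143 and 150 CPM in the S31A control, a ratio of -1.76. Dnmt3a, the de novo DNA methyltransferase, was at 161 and 207 CPM against 73.3 and 65.2 CPM, a ratio of -1.37. Both were lower in both S31A control libraries. Bnc1, the basonuclin of oocytes, was higher at 333 and 408 CPM against 174 and 192 CPM, a ratio of 1.05. H1f8, the oocyte linker histone, was at 1180 and 374 CPM against 2167 and 2402 CPM, a ratio of 1.42 with MO control library 2 far below library 1. H3f3a and H3f3b, the genes of H3.3 itself, had ratios of 0.26 and -0.23 with overlapping libraries, at 462 and 586 CPM against 657 and 563 CPM for H3f3a and 2199 and 1550 CPM against 1453 and 1819 CPM for H3f3b.

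Genes that store and translate maternal mRNA had a median of 0.01, with 2 of 19 higher (10.5%) and 3 lower (15.8%). Over all measured genes 12.6% were higher and 17.3% lower. Lsm14b, a protein of stored mRNA particles in oocytes, was at 288 and 240 CPM in the MO control and 766 and 1223 CPM in the S31A control, a ratio of 1.91. Zar1, which binds stored mRNA, was at 697 and 380 CPM against 1424 and 1426 CPM, a ratio of 1.33. Cpeb4, which steers cytoplasmic polyadenylation, was lower at 77.6 and 69.1 CPM against 173 and 145 CPM, a ratio of -1.13. Of 21 measured genes of maternal mRNA decay, 3 were higher (14.3%), 4 lower (19.0%), and the median was -0.53, or -0.13 without MO control library 1.

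The CCR4-NOT deadenylase, which removes poly(A) tails, differed among its subunits. Its catalytic subunit Cnot6 was at 133 CPM in both MO control libraries, against 11.7 and 69.5 CPM in the S31A control, a ratio of -1.67. Cnot8, another catalytic subunit, was at 327 and 187 CPM against 80.8 and 90.8 CPM, a ratio of -1.64. Neither overlapped between the controls. Cnot11, a further subunit of the complex, was higher at 274 and 333 CPM against 89.7 and 138 CPM, a ratio of 1.49. Btg4, the adaptor that brings this complex to maternal mRNA, was close to even at 4006 and 3278 CPM against 3083 and 2973 CPM, a ratio of -0.29.

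Among genes of egg meiosis and the cell cycle, 9 of 35 measured (25.7%) were at least 2-fold lower, against 17.3% of all measured genes, and none higher. The median was -0.54, or -0.30 without MO control library 1 and -0.77 without S31A control library 1. Ccne1, cyclin E1, was at 21.2 and 7.40 CPM in the MO control and had 0 counts in both S31A control libraries, at least 115-fold lower by a floor of 3 counts in the summed sample. Fbxo5, the Emi1 inhibitor of the anaphase-promoting complex, was at 90.6 and 233 CPM against 50.2 and 18.2 CPM, a ratio of -2.11. Wee2, the oocyte kinase that holds Cdk1 inactive, was at 861 and 956 CPM against 387 and 285 CPM, a ratio of -1.42, and Cdc25a, a phosphatase that activates cyclin-dependent kinases, had a ratio of -1.70. The core of the mitotic kinase did not share 1 direction: the B-type cyclin Ccnb1 was at 0.21, Ccnb2 at 0.51 and Cdk1 at -0.81.

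Regulators of early genome activation had ratios on both sides, 10 of 16 measured below 0 and 6 above. At least 2-fold lower were 6 (37.5%, against 17.3% of all measured genes), of which Polr2a and Chaf1a overlapped between libraries, and 1 was higher (Smarca5, 1.18). The median was -0.82, from -1.01 without MO control library 1 to -0.50 without S31A control library 2. Crebbp, a histone acetyltransferase, was at 262 and 221 CPM in the MO control and 71.9 and 127 CPM in the S31A control, a ratio of -1.28. Cdk9, the kinase that releases paused RNA polymerase II, was at 25.5 and 19.9 CPM against 0 and 16.7 CPM; its ratio of -1.41 rested on S31A control library 1.

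Of 38 genes of the 2-cell stage only 7 were measured. Klf17, Sp110 and Duxf3 were lower, 3 of 7 (42.9%, against 17.3% of all measured genes), and none was higher. Klf17 is the gene named above among maternal transcripts with many reads. Sp110 (33.5 against 5.59 CPM in the summed samples) and Duxf3 (15.6 against 0 CPM) passed the filter only through the MO control. The share is therefore no measure of a 2-cell programme. Duxf3, the Dux activator of the 2-cell programme, was at 19.9 and 8.38 CPM in the MO control and 0 in both S31A control libraries, at least 112-fold lower, but with 60.3% of its 31-base words in other genes. The list's median was -0.45, or -1.08 without S31A control library 1 and -0.13 without MO control library 2. In the injected pair the median was 0.36, with 2 members at least 2-fold higher and 2 lower. The lower level of Duxf3 was not found again there. Its injected ratio was 0.72 with overlapping libraries, and S31A injected library 2 held it at 8.56 CPM. Among 22 measured genes of the major wave 2 were higher, 2 lower, and the median was -0.31. These shares were 9.09% each, against 12.6% higher and 17.3% lower over all measured genes. The lower genes of the major wave were Nop56 and Nop58, paired core proteins of the box C/D snoRNPs that modify rRNA. Nop56 was at 78.5 and 114 CPM against 19.2 and 9.14 CPM, a ratio of -2.70, and Nop58 at 32.7 and 58.4 CPM against 11.4 and 7.30 CPM, a ratio of -2.18.

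The injected samples share no library with the controls, so the same difference, S31A over MO, could be measured again in them. Their injections differ, and experiment and injection cannot be told apart there. Of 8370 genes, 15% stood 2-fold or more above MO injected in S31A injected and 19.9% 2-fold or more below it. Of the 2040 genes that were 2-fold apart without overlap between the controls, 1352 (66.3%) had the same direction in the injected pair, 761 were 2-fold the same way and 276 were 2-fold the other way. Over all measured genes 60.1% had the same direction. The share was 58.7% when MO injected library 2 was left out and 70.7% without MO injected library 1.

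The agreement in direction went with the level of the genes. Among the 231 such genes with a mean of 100 CPM or more, 206 (89.2%) had the same direction and 3 were 2-fold the other way, a limit chosen after the data were seen. The share over all genes at that level was not taken, and the 60.1% above covers genes of all levels. Among the 991 with a mean under 20 CPM, 590 (59.5%) had the same direction and 193 were 2-fold the other way. Across the 1016 genes at 200 CPM or more, Pearson's r between the 2 ratios was 0.61 and Spearman's rho 0.57, against 0.22 and 0.25 across all 8370 genes. These are correlations across genes that share libraries and scaling, and genes are not independent replicates.

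**Figure D3:**
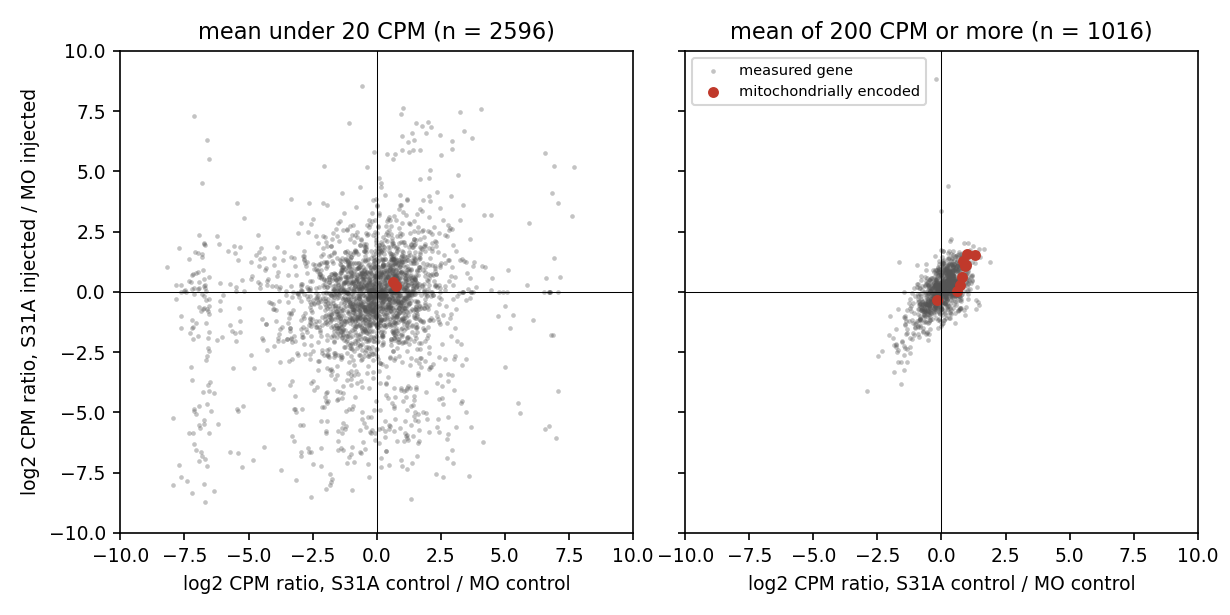
Each point is a gene, with the log2 CPM ratio S31A over MO between the controls on the x axis and between the injected samples on the y axis, for genes with a mean under 20 CPM (left) and of 200 CPM or more (right). The right cloud follows the diagonal (r = 0.61), with the mitochondrially encoded genes mostly at its upper end, while the left cloud spreads in all 4 directions.

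All 4 S31A libraries lay above all 4 MO libraries for 362 genes (4.32%) and below them for 545 (6.51%). At a mean of 100 CPM or more these were 166 and 185 of 2044 genes, or 8.12% and 9.05%. Of the 9 mitochondrially encoded mRNAs, 6 were among the genes above and none among those below, and their median ratio in the injected pair was 1.09. mt-Nd2 was at 3172 and 6140 CPM in MO injected and 11581 and 13950 CPM in S31A injected, so every S31A library exceeded every MO library. mt-Nd5 and mt-Nd6 were higher in the S31A control but overlapped once the injected libraries were included.

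Klf17 was at 1908 and 1665 CPM in MO injected and 381 and 600 CPM in S31A injected, a ratio of -1.91, equal at this precision to the -1.91 between the controls. Rspo2 was at 631 and 851 CPM against 2799 and 2449 CPM, a ratio of 1.88. In both genes the 4 S31A libraries stood on 1 side of the 4 MO libraries. The Tcl1b genes had a median of -2.06 in the injected pair. Of the 5, 4 were below in all S31A libraries, against 6.51% of all measured genes. Tcl1b2 overlapped, because S31A injected library 2 (666 CPM) lay just above MO control library 2 (661 CPM). Zfp57, Dnmt3a, Cnot6, Cnot8, Fbxo5, Nop56, Nop58, Wee2 and Ndufa10 were also below and Bnc1, Fbxw18 and Cnot11 above in every S31A library.

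Ccne1 had 0 counts in both S31A injected libraries too, against 40.4 and 15.2 CPM in MO injected. Ptpre, which encodes a receptor-type tyrosine phosphatase, and Nipbl, the cohesin loader, were chosen after their values were seen among the genes with all 8 libraries on 1 side. Ptpre was at 251 and 269 CPM in the MO control and 23.1 and 60.3 CPM in the S31A control, and 200.1 and 227 against 15.1 and 56.0 CPM in the injected samples. Nipbl was at 325 and 397 CPM against 82.8 and 86.1 CPM, and 299 and 329 against 100.01 and 78.7 CPM in the injected samples. For both genes the lowest MO library was more than 2-fold above the highest S31A library.

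**Figure D4:**
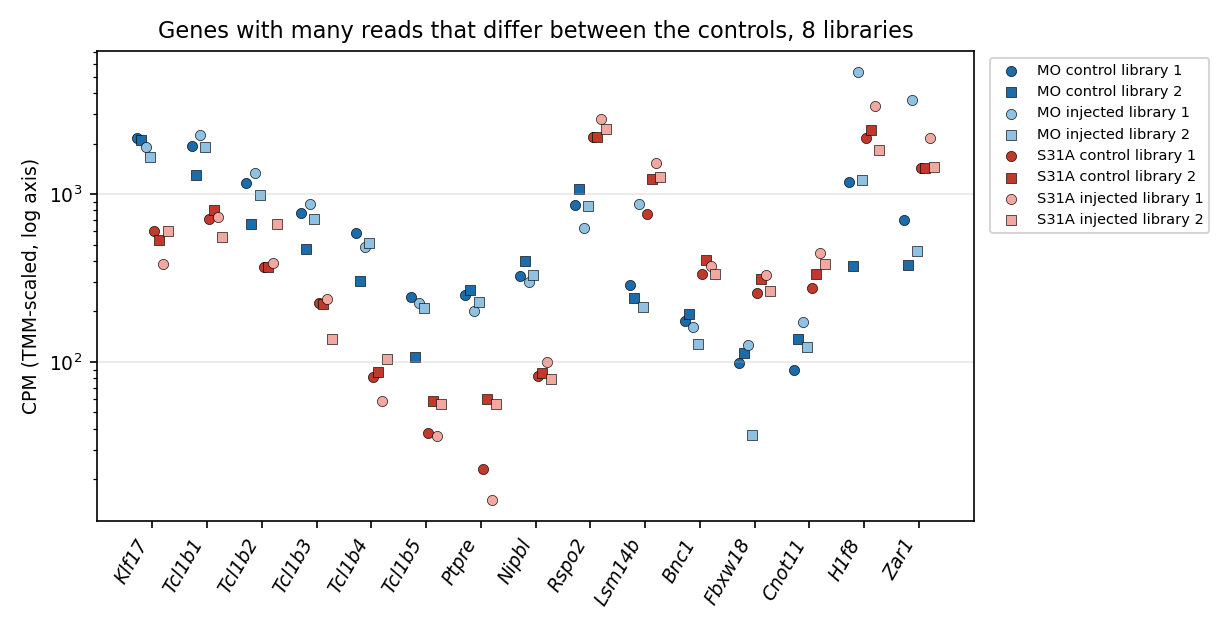
CPM (log axis) of 15 genes with many reads in each of the 8 libraries, where blue points are MO and red points S31A, dark for control and light for injected. From Klf17 to Nipbl the red points lie below the blue ones, apart from an overlap in Tcl1b2, from Rspo2 to Cnot11 above them, apart from Lsm14b, and for H1f8 and Zar1 MO injected library 1 lies above the red points.

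Other differences between the controls were found in the injected pair only in part or not at all. H1f8, higher in the S31A control, was at 5338 and 1214 CPM in MO injected and 3332 and 1835 CPM in S31A injected, a ratio of -0.44. Zar1 had -0.33 there, with 3636 and 459 CPM in MO injected. For Lsm14b the injected ratio was 1.24, but MO injected library 1 (872 CPM) exceeded S31A control library 1 (766 CPM). The median of the egg meiosis and cell cycle list was -0.10 in the injected pair and that of the early activation regulators -0.09. Whether the difference between the pairs is larger than chance was not tested, since each group was 1 sample.

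The genes with the most extreme ratios had few reads. By the counting bound nearest to no change, the 12 highest were Cnksr2, Trim38, Tnn, Med20, Ido2, Tmem52b, Arrdc2, Acat2, Zfp354b, Gucy2e, Hnrnpll and Derl1. The 12 lowest were Bcap29, Cntn2, Plcb4, Them4, Mark3, Hif3a, Znrd1as, Gpd2, Spam1, Uspl1, Yrdc and Bdp1. Cnksr2, a scaffold of Ras signalling, had 0 counts in the MO control and stood at 13.5 and 10.7 CPM in the S31A control, at least 61.9-fold higher. Ido2, a tryptophan-degrading enzyme, was at 1.09 and 0 CPM against 13.6 and 13.9 CPM, a ratio of 4.198. Ido2, Gucy2e and Derl1 were above in all S31A libraries and the other 9 overlapped.

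On the low side Bcap29, an endoplasmic reticulum protein, was at 37.8 and 21.2 CPM in the MO control and had 0 counts in the S31A control, at least 228-fold lower. It was at 15.9 and 19.7 CPM in S31A injected and 1.23 and 19.4 CPM in MO injected. Them4, a thioesterase, and Uspl1, a SUMO protease, had 0 counts in all 4 S31A libraries, against 18.04 and 29.8 CPM and 20.7 and 14.1 CPM in the MO control. The other 10 of the 12 lowest had reads in S31A injected. In all, 81 of the lower genes without overlap had 0 counts in the S31A control, of which 22 had 0 in both S31A injected libraries and 27 reached 10 CPM in at least 1 of them. Only 6 of the higher genes without overlap had 0 counts in the MO control. Gaps at 0 counts between the libraries of 1 sample were also more frequent in the S31A control (8.39% against 0.73%).

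Genes with a mean of 10 CPM or more pass the filter whether or not they differ, and among these the shares can be read by level. At 10 to 20 CPM, 16.2% of 1798 genes were higher and 23.7% lower by 2-fold or more, and 13.1% had 0 counts in an S31A control library against 1.39% in an MO control library. At 100 to 200 CPM 3.79% of 1028 genes were higher and 9.14% lower, and at 500 CPM or more 4.52% of 332 genes were higher, 6.02% lower and none had 0 counts. Between its own 2 libraries the S31A control had 36.5% of measured genes at least 2-fold apart and the MO control 22.3%. The injected samples were like the S31A control in this, with 36.8% for MO injected and 37.1% for S31A injected, so the MO control stood apart with the smallest share. The part of such gaps in the ratios of low genes was not tested.

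**Figure D5:**
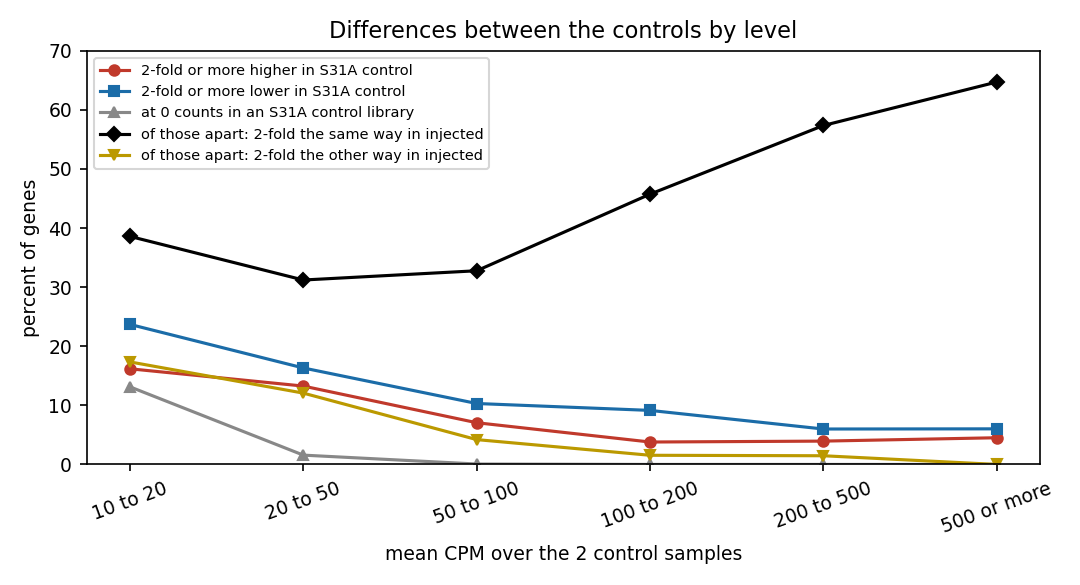
Percent of genes (y axis) by mean CPM over the control samples (x axis, 6 ranges from 10 CPM). The shares at least 2-fold higher (red), 2-fold lower (blue) and at 0 counts in an S31A control library (grey) fall from 10 to 200 CPM. The red share is then 3.95% at 200 to 500 CPM and 4.52% at 500 CPM or more. Of the genes 2-fold apart without overlap, the share that is 2-fold the same way in the injected pair (black) reaches 64.7% at 500 CPM or more, where the share 2-fold the other way (yellow) is 0%.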

How the data were processed

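The authors deposited 1 table of raw read counts for each gene, whole numbers, with gene lengths in bases. Per the labels' protocols, cDNA from total RNA was amplified by PCR and built into libraries with NEBNext Ultra II reagents. Per the submitters' processing notes, the tools were Bowtie2, featureCounts, FastQC and DESeq2 and the build was mm10; versions, annotation, strand setting and treatment of reads with several matches are not given in the sources used here, so overlapping, antisense and copied genes are uncertain. Of the symbols, 96.4% matched GENCODE M21 and 95.7% had the same coordinates there.

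Counts of the 2 libraries were summed per sample, scaled with TMM (edgeR 4.0.16, R 4.3.3) and compared as log2 CPM ratios with a prior count of 2, for genes that reached 10 CPM in either sample. Library CPM used TMM over all 8 libraries. Intervals are exact 95% Clopper-Pearson intervals and, like the floor of 3 counts, cover counting error only, since PCR copies are not independent molecules. edgeR's quasi-likelihood test and DESeq2 1.42.0 were run over the 4 control libraries. The ratios and the edgeR test, but not DESeq2, were also tried on simulated counts with the same spread set for all genes. Named genes were the 12 highest and 12 lowest by interval bound (at least 2-fold, 50 counts and 10 CPM in both libraries of the higher sample, no overlap, no predicted or clone symbol), the 10 with the most reads among genes 2-fold apart without overlap, the 4 members of each list with the largest ratio, and the H3.3 genes. Other genes were chosen after their values were seen, and some results are not reported here. The comparison, the rules and all 30 gene lists were chosen with earlier results of these data known.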

Additional observations from a re-analysis of the deposited data

Results flagged for a closer look

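Med20, a Mediator subunit, and Astl moved in opposite directions in the 2 pairs, with both S31A libraries above both MO libraries in the controls and below them in the injected samples. Med20 was at 3.15 and 0.16 CPM in the MO control and 39.0 and 33.7 CPM in the S31A control, a log2 ratio of 4.14, but at 25.0 and 24.8 CPM in MO injected and 0.43 and 0 CPM in S31A injected, a ratio of -6.24. Astl had 1.46 between the controls and -1.80 between the injected samples, at 143 and 40.7 CPM in MO injected and 29.2 and 28.3 CPM in S31A injected. The difference was not tested. Among all measured genes, 156 were at least 2-fold apart without overlap in both pairs with opposite directions, against 598 with the same direction.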

How the results depend on the processing

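No paired analysis was possible because each group was 1 sample, the labels give no replicate numbers and the ratios come from no test. The counts of genes followed the filter: 2309 higher and 4262 lower at 1 CPM, 292 and 441 at 50 CPM, and 2641 and 6557 with no filter beyond 1 count. Leaving out 1 control library gave 1302 to 1427 higher and 1417 to 1950 lower. edgeR called 78 genes at a filter of 50 CPM, and DESeq2 called 370. The share of genes with control libraries on 1 side was 41.8% at 1 CPM and 49.9% at 50 CPM. The same-direction share was 59.99% at 1 CPM, 78.7% at 50 CPM, 58.4% with no filter and 89.2% at a mean of 100 CPM or more, and 58.7% to 70.7% with 1 library left out. The median of 2-cell-stage genes was -3.46 at 1 CPM and -2.56 with no filter. Members let in there included genes with reads in 1 MO control library and 0 counts in the S31A control. Examples were Zscan4d, at 0 and 6.41 CPM in the MO control, and Usp17lc, at 6.30 and 0 CPM. Such genes can only have a ratio below 0, so these 2 medians follow the filter. With 1 library left out, medians ran from -1.08 to -0.13 for 2-cell-stage genes, -1.74 to -1.04 for Tcl1b, -0.64 to -0.13 for decay, -1.01 to -0.50 for early activation regulators, -0.77 to -0.30 for cell cycle genes and 0.78 to 0.98 for mitochondrial mRNAs. None of these medians changed sign. For the 94 named genes that were 2-fold apart, all 969 alternative values above the filter kept their sign and 930 were still 2-fold apart. This says nothing of ratios close to 0, and a change of filter leaves a gene's ratio as it is. Where libraries did not overlap, leaving 1 out could hardly change the sign. Values under the filter were not counted, and these can reverse. Sesn2 was at 0.35 CPM in S31A control library 2, against 2.14 CPM in the summed MO control. The causes were not tested. Gaps at 0 counts were more frequent in the S31A control although its depth was higher, and they limit what can be said of genes with few reads.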

Other observations

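Of 12 measured cytosolic ribosomal protein genes out of 79, 3 (25%) were at least 2-fold higher and 1 (8.33%) was lower. Over all measured genes the shares were 12.6% and 17.3%. The list's median log2 ratio was 0.14. Rpl17 was the lower one, at 29.5 and 69.5 CPM in the MO control and 1.49 and 5.01 CPM in the S31A control. Of 7 measured p53 targets, 3 (42.9%, against 12.6% of all measured genes) were higher and none was lower. Of these, Sesn2 (30.4 CPM) and Ccng1 (28.7 CPM) rested on S31A control library 1, with 0.35 and 0 CPM in library 2. The list's median was 0.73 between the controls and -0.50 in the injected pair. Btg2, an antiproliferative gene of this list, was at 14.1 and 20.9 CPM against 95.2 and 34.7 CPM and had a ratio of 2.05 in the injected pair, where its libraries overlapped. None of 15 interferon-stimulated genes and none of 11 short structural RNAs was measured.

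Among measured genes the share at least 2-fold higher in the S31A control went from 15.5% in the fifth with the shortest annotated length to 8.42% in the fifth with the longest, and from 9.67% in the fifth with the lowest GC content to 18.6% in that with the highest. GC content was known for 98.2% of measured genes. At a mean of 50 CPM or more, Spearman's rho of the ratio with GC content was 0.11 across 3442 genes and with length -0.12 across 3489 genes. In the injected pair these were -0.19 and 0.00, so the relation with GC content had the opposite sign there. These are descriptions across genes, which are not independent replicates.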
